A study of Homo sapiens with 4 samples.

Results

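The genes described here are 55 cytokines, chemokines, cytokine receptors, Toll-like receptors, adhesion molecules, acute-phase proteins and suppressors of cytokine signalling, chosen by name. All are called cytokine genes below. Of these, 54 had a row among the 19626 genes of the deposited tables, and IL18 was not analysed here. Their RNA was measured in ES-2, an established human ovarian cancer cell line that carries an endogenous fusion of YAP1 and MAML2 (YM). The cells received pLKO.1 lentivirus carrying either a non-targeting shRNA (shCtl, 2 biological replicates) or shM2-3 (2 biological replicates), in exposures of 8 h on each of 2 days, and RNA was taken 96 h from the first exposure, as the labels give it; the study's methods give another schedule of exposure and a shorter time. Every library therefore comes from transduced cells. shM2-3 is 1 shRNA against a MAML2 stretch that the fusion also contains, so native MAML2 and YM are both targets, and no second shRNA or rescue is among the 4 libraries.

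Cytokines are small secreted or membrane-bound proteins that cells use to signal injury, infection and growth. They bind receptor chains on the same or a neighbouring cell, and the signal runs through Toll/IL-1 receptor adaptors to NF-kB, through Janus kinases to STAT factors, or, for chemokines, through G protein-coupled receptors that direct cell migration. Ovarian carcinoma cells are known to secrete many of them, among them the neutrophil-attracting CXC chemokines, interleukin-6 family members and colony-stimulating factors.

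The estimated counts per library summed to 20051083 and 20423873 in shCtl and to 23978660 and 21813798 in shM2-3. MAML2, the targeted gene, was at 8.44 ± 0.243 RPKM (reads per kilobase of transcript and per unit of library depth; SD, n = 2) in shCtl and at 3.05 ± 0.0776 RPKM (SD, n = 2) in shM2-3, a log2 fold change of -1.40 (SE, the standard error, 0.0688; edgeR quasi-likelihood test with Benjamini-Hochberg adjustment, adjusted p = 5.18e-10). The source tissue is labelled as clear cell carcinoma, but the markers NAPSA and PAX8 were near 0, with at most 22 counts in any library, while AMACR was present at 5.07 and 4.57 RPKM in shCtl and 3.12 and 2.68 RPKM in shM2-3. Of the 6 genes of carcinoma epithelium, EPCAM had at most 6 counts, and the keratins KRT7, KRT8 and KRT18 carried a summed level of 637 RPKM in each shCtl library and 312 and 316 RPKM in shM2-3, with KRT7 (log2 fold change -1.26) and KRT8 (-1.22) called lower. Markers of other cell types were read in the same libraries. Of the leukocyte list, 6 of 8 genes had a row, the summed level was 57.5 to 58.3 RPKM in shCtl and 42.0 to 43.0 RPKM in shM2-3 and was mostly CD68, and the defining markers PTPRC and CD3E had at most 3 counts in any library, while CSF1R and CD14 of the same list were higher in shM2-3, from 2 and 8 counts to 230 and 223 and from 3 and 4 counts to 42 and 37. Of the 6 fibroblast genes, COL1A1 and PDGFRA alone exceeded 1 RPKM, COL3A1, DCN and LUM had at most 10 counts, and the summed level was 335 to 345 RPKM in shCtl and 868 in both shM2-3 libraries. The 5 endothelial genes summed to 9.40 to 10.6 RPKM in shCtl and 5.10 to 5.67 RPKM in shM2-3, with VWF and TEK at no more than 18 counts; CDH5 carried most of this sum, while PECAM1 went from 6 and 5 counts to 256 and 163. The part of these marker differences in the results below was not tested, and in bulk RNA fewer cells of a type and less RNA per cell cannot be told apart.

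Cytokine genes moved in both directions after knockdown. The colony-stimulating factors, the interleukin-1 ligands, LIF, IL11, their shared receptor IL6ST and the adhesion molecule ICAM1 were higher in shM2-3, whereas the chemokines CXCL3 and CXCL5, the epithelial cytokine TSLP and the inhibitor SOCS2 were lower. A gene was called when its adjusted p was 0.05 or less and its fold change 2 or more, among genes above 1 RPKM in at least 1 library. By that rule 31 cytokine genes were tested, 13 were called higher (41.9%) and 4 lower (12.9%), where 9.24% and 8.93% of all 12157 genes tested were called higher and lower. By adjusted p alone 15 were higher and 12 lower, beside 36.3% and 36.4% of all genes. The median log2 fold change was 0.16 over the 31 genes and -0.00 over all genes tested. IL1A, CSF2, CSF3, TLR3 and SOCS1 passed the RPKM limit in shM2-3 only and TSLP in shCtl only, so the limit itself favoured a difference in these 6. Among the 25 that passed in both groups, 8 were called higher (32%) and 3 lower (12%), where 6.86% and 6.85% of the 11066 genes that passed in both groups were.

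**Figure D1:**
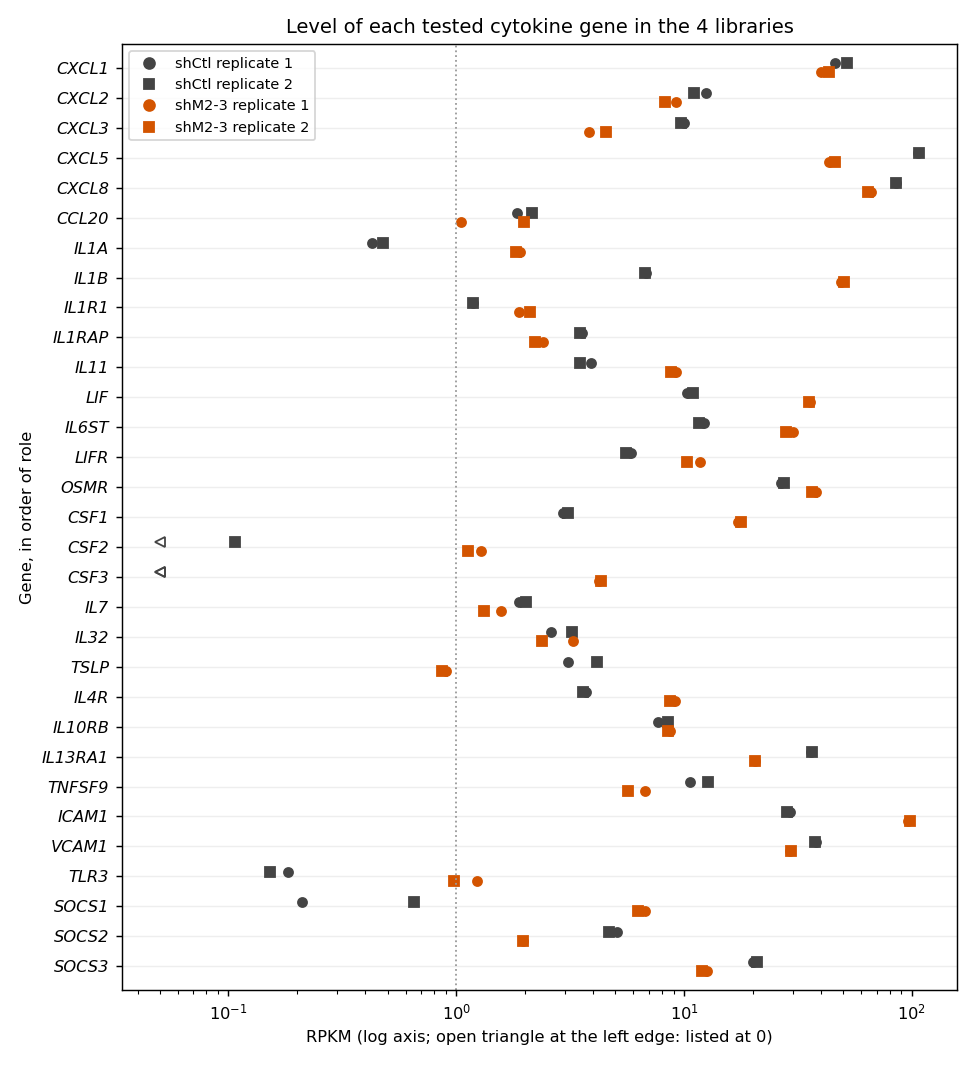
Level of each of the 31 tested genes in each library, as RPKM on a log axis, with shCtl in dark grey and shM2-3 in orange, circles for replicate 1, squares for replicate 2 and open triangles at the left edge for a level listed at 0; the dotted line is the limit of 1 RPKM. In shCtl CXCL5 leads at 107 RPKM and ICAM1 stands at 28.7 RPKM, while in shM2-3 ICAM1 leads at 97.1 RPKM and CXCL5 stands at 44.9 RPKM.

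As the plot of levels shows, chemokines headed the order of RPKM in shCtl, with CXCL5 at 107 ± 1.74, CXCL8 at 85.0 ± 0.234 and CXCL1 at 48.9 ± 4.15 RPKM (SD, n = 2), followed by VCAM1 at 37.7 and IL13RA1 at 36.2 RPKM. In shM2-3 the order began with ICAM1 at 97.1 ± 1.81, CXCL8 at 65.2 ± 1.34, IL1B at 49.8 ± 1.16, CXCL5 at 44.9 ± 1.90 and CXCL1 at 41.5 ± 2.27 RPKM (SD, n = 2). In shM2-3 CXCL5 and CXCL1 were neighbours in this order whose values nearly met, the lower library of CXCL5 being at 43.5 RPKM and the higher of CXCL1 at 43.1 RPKM. Summed over the 6 chemokines of the CXCL8 class the level was 259 and 266 RPKM in shCtl and 163 and 166 RPKM in shM2-3. Summed over the 18 ligands that are not chemokines it was 44.8 and 49.5 RPKM in shCtl and 133 RPKM in each shM2-3 library.

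The CXC chemokines with a glutamate-leucine-arginine (ELR) motif, CXCL1, CXCL2, CXCL3, CXCL5, CXCL6 and CXCL8, attract neutrophils through the receptors CXCR1 and CXCR2. All 6 genes lie within 359 kb of chromosome 4 (hg38, 73740519 to 74099196). Their proximal promoters are shown because these neighbours were all lower in shM2-3 where they were tested, by unequal amounts. The windows run from 150 bases before to 50 bases after the annotated start, 5′ to 3′ on the strand of the gene (RefSeq, GRCh38.p14), and capitals mark the NF-kB motif or, in CXCL8, the AP-1 motif TGANTCA.
CXCL1 (chr4:73869243-73869442, plus strand): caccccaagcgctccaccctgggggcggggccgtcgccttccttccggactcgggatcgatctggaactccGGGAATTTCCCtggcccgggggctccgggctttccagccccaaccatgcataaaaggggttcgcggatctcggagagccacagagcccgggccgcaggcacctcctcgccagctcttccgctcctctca
CXCL2 (chr4:74099146-74099345, minus strand): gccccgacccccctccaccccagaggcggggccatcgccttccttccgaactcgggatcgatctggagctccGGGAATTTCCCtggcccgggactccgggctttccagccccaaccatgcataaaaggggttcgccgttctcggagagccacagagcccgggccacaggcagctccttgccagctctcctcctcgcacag
CXCL3 (chr4:74038640-74038839, minus strand): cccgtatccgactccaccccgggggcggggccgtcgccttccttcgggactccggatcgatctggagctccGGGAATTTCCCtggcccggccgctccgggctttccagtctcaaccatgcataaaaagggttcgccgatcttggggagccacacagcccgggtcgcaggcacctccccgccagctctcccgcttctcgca
CXCL5 (chr4:73998628-73998827, minus strand): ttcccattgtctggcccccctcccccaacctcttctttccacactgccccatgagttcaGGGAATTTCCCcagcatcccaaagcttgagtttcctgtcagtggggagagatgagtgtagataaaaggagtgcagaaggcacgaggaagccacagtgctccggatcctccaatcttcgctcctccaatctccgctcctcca
CXCL6 (chr4:73836528-73836727, plus strand): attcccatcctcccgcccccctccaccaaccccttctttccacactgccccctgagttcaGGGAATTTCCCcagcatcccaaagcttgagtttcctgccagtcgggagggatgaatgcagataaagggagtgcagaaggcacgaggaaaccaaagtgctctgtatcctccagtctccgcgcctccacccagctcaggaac
CXCL8 (chr4:73740419-73740618, plus strand): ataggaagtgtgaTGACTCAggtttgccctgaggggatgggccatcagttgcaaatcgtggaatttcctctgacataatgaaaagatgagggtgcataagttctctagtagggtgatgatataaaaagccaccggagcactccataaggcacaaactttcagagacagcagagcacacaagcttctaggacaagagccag

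The same run of capitals stood in CXCL1, CXCL2, CXCL3, CXCL5 and CXCL6, starting between 78 and 91 bases before the start, where it met the NF-kB motif on either strand at positions 1 base apart. CXCL8 had no exact match to these NF-kB letters in its window, but held tggaatttcc, 1 letter away from the GGGAATTTCC of its neighbours. It had 1 match to AP-1, 137 bases before the start. Over the wider windows from 250 bases before to 50 after the start, 15 of the 41 cytokine genes with a RefSeq promoter held the NF-kB motif, against 12.9% of the promoters of 9570 tested genes and 11.3% of all 35114 promoters. These matches describe letters and not binding.

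Within this cluster CXCL3 and CXCL5 were called lower, and the remaining 3 tested genes were lower by less than 2-fold. CXCL5 had 6033 and 6278 counts (106 and 108 RPKM) in shCtl and 3037 and 2919 counts (43.5 and 46.2 RPKM) in shM2-3. CXCL3 had 251 and 249 counts (9.98 and 9.74 RPKM) in shCtl and 117 and 126 counts (3.81 and 4.53 RPKM) in shM2-3. In both genes the replicates lay close together and the groups did not overlap, as in 29 of the 31 tested cytokine genes. The log2 fold change was -1.19 for CXCL5 (SE 0.0461, edgeR adjusted p = 4.41e-11) and -1.18 for CXCL3 (SE 0.163, edgeR adjusted p = 1.98e-05). CXCL8, the best known neutrophil chemokine, had 85.2 and 84.9 RPKM in shCtl and 66.2 and 64.3 RPKM in shM2-3 (log2 fold change -0.32, SE 0.0423, edgeR adjusted p = 1.43e-05). CXCL1 had 45.9 and 51.8 RPKM in shCtl and 39.9 and 43.1 RPKM in shM2-3, and CXCL2 had 12.5 and 11.1 RPKM against 9.18 and 8.26 RPKM. Their log2 fold changes were -0.17 and -0.37 (edgeR adjusted p = 0.0432 and 0.0193), and neither stayed under 0.05 once shCtl replicate 2 (CXCL1, 0.347), shM2-3 replicate 1 (CXCL1, 0.27), shCtl replicate 1 (CXCL2, 0.153) or shM2-3 replicate 2 (CXCL2, 0.103) was left out, nor under DESeq2 with all 4 libraries (0.114 and 0.0734). CXCL6 had 1 count in each shCtl library and 0 in each shM2-3 library. The coding sequences of CXCL1 and CXCL2 are 93.5% identical, those of CXCL2 and CXCL3 94.4% and those of CXCL5 and CXCL6 87.4%. The study's methods state that ambiguous reads and reads of low mapping quality were removed. How the remaining reads were split among these copies was not tested.

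The other 9 chemokines were scarce. CCL20, which attracts cells through CCR6, was the 1 gene of these above 1 RPKM, with 1.84 and 2.16 RPKM in shCtl and 1.05 and 1.99 RPKM in shM2-3. Its groups overlapped, and its log2 fold change was -0.34 (SE 0.412, edgeR adjusted p = 0.467), or 0.06 without shM2-3 replicate 1. CCL5, a T cell attractant, had 0 and 2 counts in the control libraries and 24 and 10 after knockdown, a depth-scaled ratio of 15.4 (95% counting interval 3.95 to 132). CXCL10, an interferon-induced chemokine, had 0 counts in each shCtl library and 2 and 5 counts in shM2-3, and CXCL11, its neighbour, had 0 and then 2 and 3 counts. CCL26 went the other way, with 4 and 8 counts in shCtl and 0 in both shM2-3 libraries. CXCL12, CXCL16, CX3CL1 and CCL2 had at most 11 counts in any library. Of 13 chemokine receptors listed, 9 had a row, none passed the RPKM limit, and the largest value was 29 counts for the scavenging receptor ACKR4.

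**Figure D2:**
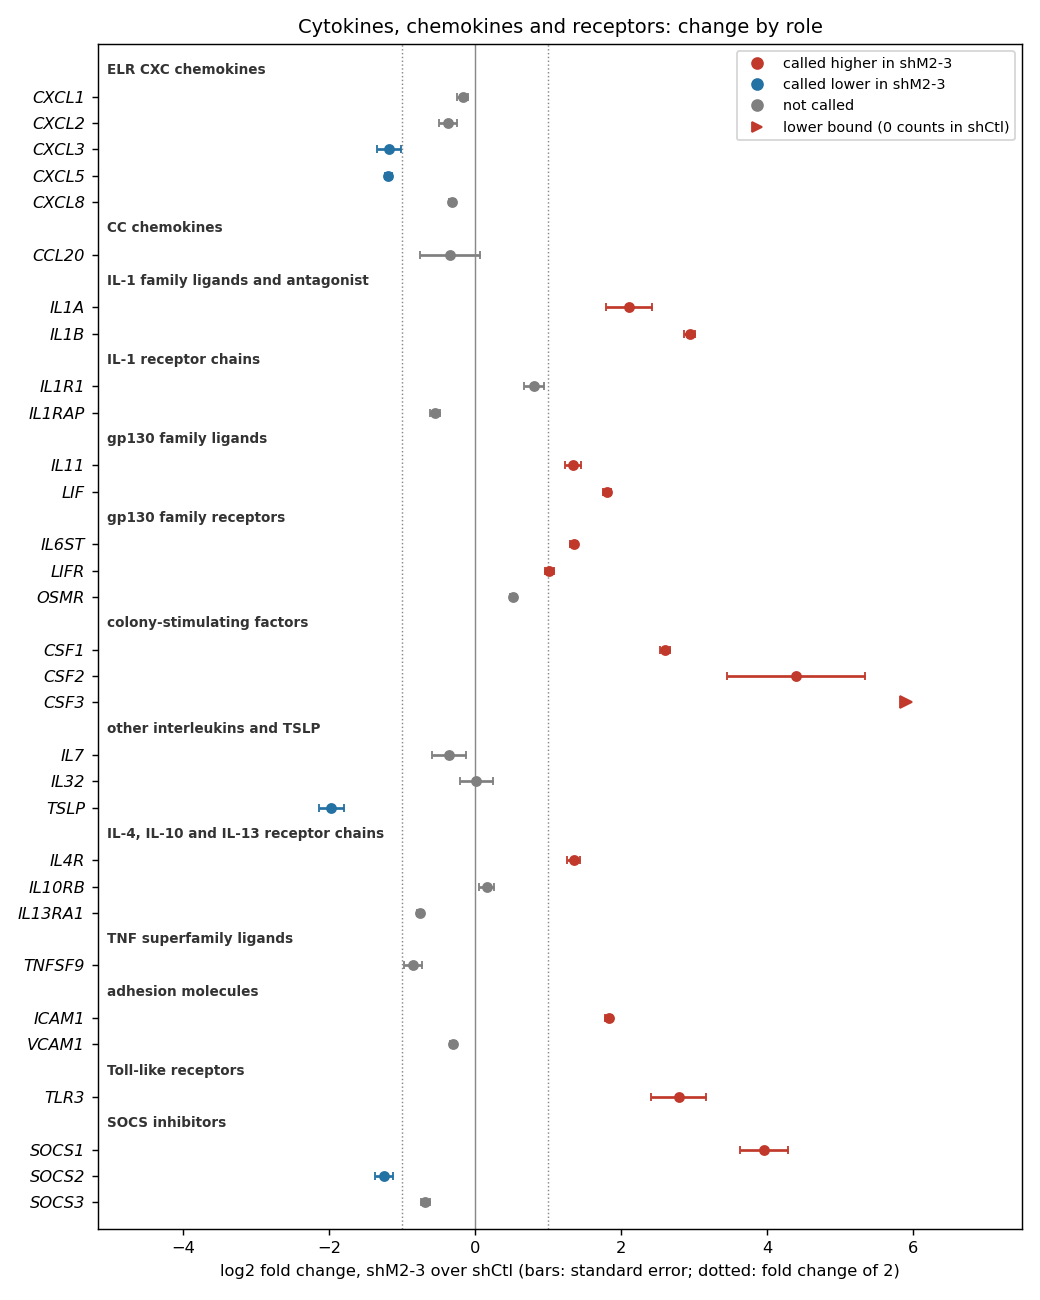
Log2 fold change of each tested gene, shM2-3 over shCtl, ordered by role, with bars for the SE of the edgeR fit, red for genes called higher, blue for genes called lower, grey for the rest and a triangle for the lower bound of CSF3; dotted lines mark a fold change of 2. The tested chemokines all lie left of 0, from -1.19 to -0.17, while all 3 colony-stimulating factors lie at 2.60 or above.

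Interleukin-1 alpha and beta are the alarm cytokines of the IL-1 family. Their genes are neighbours on chromosome 2 (hg38, 112773925 to 112836816), 62.9 kb from end to end, and both were higher after knockdown. IL1B had 240 and 242 counts (6.82 and 6.76 RPKM) in shCtl and 2107 and 1972 counts (49.0 and 50.6 RPKM) in shM2-3. IL1A had 21 and 24 counts in the control libraries and 115 and 100 after knockdown, or 0.426 and 0.479 RPKM against 1.91 and 1.83 RPKM. Replicates of each group lay close together and far from the other group. The increase was 7.67-fold for IL1B (log2 fold change 2.94, SE 0.0749, edgeR adjusted p = 5.39e-13) and 4.31-fold for IL1A (2.11, SE 0.309, edgeR adjusted p = 3.42e-05). IL1A passed the RPKM limit in shM2-3 only, which favoured its call. IL33, a nuclear alarmin of the family, stayed under the RPKM limit, with 0 and 1 counts in the control libraries and 19 and 34 after knockdown, a ratio of 48.0 (95% counting interval 8.25 to 1930). IL1RN, the receptor antagonist, had 0 counts in 3 libraries and 4 in the other.

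The promoter of IL1A is shown with its AP-1 matches in capitals, 12 bases before and 39 bases after the start, and that of IL11, described below, with its AP-1 match 96 bases before the start. Both were called higher. The AP-1 letters were found in 9 of 41 cytokine promoters, in 4.54% of promoters of tested genes and in 7.71% of all promoters. Of the other carriers, IL6R and CXCL8 were lower in shM2-3, OSMR and TNFSF15 were higher, and IL1RN, CXCL11 and LCN2 had at most 4 counts in any library.
IL1A (chr2:112784444-112784643, minus strand): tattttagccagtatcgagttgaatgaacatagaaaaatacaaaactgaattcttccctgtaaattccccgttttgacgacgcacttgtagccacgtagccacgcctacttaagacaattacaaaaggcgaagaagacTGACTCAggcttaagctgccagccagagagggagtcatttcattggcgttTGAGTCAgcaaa
IL11 (chr19:55370414-55370613, minus strand): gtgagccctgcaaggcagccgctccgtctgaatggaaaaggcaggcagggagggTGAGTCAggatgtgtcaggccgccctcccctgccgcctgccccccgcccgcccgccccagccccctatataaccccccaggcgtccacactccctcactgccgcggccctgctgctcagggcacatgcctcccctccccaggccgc

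The chains of the IL-1 receptor moved in opposite directions and by less than the 2-fold limit. The ligand-binding chain IL1R1 had 1.19 and 1.18 RPKM in shCtl and 1.88 and 2.10 RPKM in shM2-3 (log2 fold change 0.81, SE 0.138, edgeR adjusted p = 1.34e-04). The accessory protein IL1RAP, which the IL-1 and IL-33 receptors need to signal, had 3.55 and 3.51 RPKM in shCtl and 2.40 and 2.22 RPKM in shM2-3 (log2 fold change -0.55, SE 0.073, edgeR adjusted p = 1.46e-05).

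Cytokines of the interleukin-6 family signal through gp130, encoded by IL6ST, paired with a ligand-specific chain. LIF, IL11, IL6ST and LIFR were higher in shM2-3, whereas IL6R was lower. LIF, a regulator of stem cell self-renewal and embryo implantation, had 934 and 1003 counts (10.3 and 10.9 RPKM) in shCtl and 3959 and 3535 counts (35.7 and 35.2 RPKM) in shM2-3. IL11 had 217 and 198 counts (3.90 and 3.49 RPKM) in shCtl and 625 and 539 counts (9.18 and 8.74 RPKM) in shM2-3. Neither gene overlapped between groups, which held for 29 of the 31 tested cytokine genes. The increases were 3.51-fold for LIF (log2 fold change 1.81, SE 0.0504, edgeR adjusted p = 1.41e-12) and 2.54-fold for IL11 (1.34, SE 0.109, edgeR adjusted p = 1.02e-07). IL6 itself was scarce, with 23 and 26 counts in the control libraries and 14 and 18 after knockdown. Fibroblasts are known producers of LIF and IL11. Beside these increases the fibroblast genes COL1A1 and PDGFRA were higher, COL1A1 going from 327 and 338 RPKM to 843 RPKM in each shM2-3 library and PDGFRA from 7.58 and 7.51 RPKM to 25.2 and 24.8 RPKM (log2 fold change 1.79, edgeR adjusted p = 4.81e-13 for PDGFRA). COL1A2 of the same list had 22 to 60 counts per library and overlapped between groups, and COL3A1, DCN and LUM stayed at 10 counts or fewer.

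On the receptor side IL6ST had 2852 and 2749 counts (12.2 and 11.6 RPKM) in shCtl and 8553 and 7218 counts (30.0 and 28.0 RPKM) in shM2-3. LIFR, the partner of gp130 for LIF, had 5.86 and 5.56 RPKM in shCtl and 11.8 and 10.3 RPKM in shM2-3. OSMR, the oncostatin M chain, was the most abundant chain of this family in shM2-3, with 26.6 and 27.6 RPKM in shCtl and 38.0 and 36.3 RPKM in shM2-3. All 3 were higher in every shM2-3 library. The log2 fold changes were 1.35 for IL6ST (SE 0.0478, edgeR adjusted p = 1.74e-11), 1.02 for LIFR (SE 0.0611, edgeR adjusted p = 4.20e-09) and 0.52 for OSMR (SE 0.0425, edgeR adjusted p = 1.00e-07). LIFR sat on the 2-fold limit and was at 0.98 without shCtl replicate 2, 0.93 without shM2-3 replicate 1 and 0.99 with scaling by total counts. IL6R, the chain specific for interleukin-6, was under the RPKM limit, with 98 and 146 counts in the control libraries and 29 and 18 after knockdown. In the fit with edgeR's filterByExpr rule, which keeps genes by counts, its log2 fold change was -2.53 (SE 0.317, adjusted p = 1.34e-05). IL11RA, the chain for IL11, had 21 and 14 counts in the control libraries and 45 and 36 after knockdown (log2 fold change 1.04, adjusted p = 0.0466 in the same fit).

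Colony-stimulating factors drive the growth and maturation of macrophages (CSF1), granulocytes and macrophages (CSF2) and neutrophils (CSF3). All 3 were called higher. CSF2 and CSF3 passed the RPKM limit in shM2-3 only, which favoured their calls. CSF1 had 323 and 347 counts (2.95 and 3.11 RPKM) in shCtl and 2316 and 2160 counts (17.3 and 17.8 RPKM) in shM2-3, a 6.06-fold increase (log2 fold change 2.60, SE 0.0699, edgeR adjusted p = 9.54e-13). CSF3 was without counts (0) in either shCtl library and had 205 and 190 counts (4.24 and 4.34 RPKM) in shM2-3. Against 3 counts per shCtl library this is at least 59.7-fold higher (edgeR adjusted p = 9.23e-09). CSF2 had 0 and 2 counts in the control libraries and 29 and 23 (1.28 and 1.13 RPKM) after knockdown, a ratio of 23.6 (95% counting interval 6.20 to 200; edgeR adjusted p = 9.22e-04). Its fitted log2 fold change of 4.40 rested on the 2 counts of shCtl replicate 2 and was 3.50 without shCtl replicate 1 and 7.65 without shCtl replicate 2. The summed level of the 3 genes was 2.95 and 3.22 RPKM in shCtl and 22.8 and 23.3 RPKM in shM2-3, and most of it was CSF1.

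The receptor of CSF1 also differed. Its gene passed the RPKM limit in shM2-3 only, which favoured its call. CSF1R, a receptor tyrosine kinase of macrophages, had 2 and 8 counts in the control libraries and 230 and 223 (1.88 and 2.01 RPKM) after knockdown (log2 fold change 5.33, SE 0.356, edgeR adjusted p = 1.34e-08; 4.68 without shCtl replicate 1 and 6.59 without shCtl replicate 2). Another myeloid gene, CD14, was also higher, as given above. The leukocyte marker PTPRC stayed at 3 or fewer counts in each library, CD3E at 1 or fewer, CD68 was at 57.3 and 56.9 RPKM in shCtl and 37.8 and 39.0 RPKM in shM2-3, and LYZ had 33 and 15 counts in the control libraries and 100 and 5 after knockdown.

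Of the remaining interleukins TSLP was the 1 gene called. TSLP, an epithelial cytokine of allergic inflammation, had 305 and 412 counts (3.11 and 4.13 RPKM) in shCtl and 108 and 94 counts (0.901 and 0.866 RPKM) in shM2-3. The groups were well apart, and TSLP fell 3.91-fold (log2 fold change -1.97, SE 0.169, edgeR adjusted p = 1.79e-07). TSLP passed the RPKM limit in shCtl only, which favoured its call. IL7, a lymphocyte survival factor, had 1.89 and 2.02 RPKM in shCtl and 1.58 and 1.32 RPKM in shM2-3 (log2 fold change -0.36, SE 0.235, edgeR adjusted p = 0.178). IL32 overlapped between groups, with 2.62 and 3.22 RPKM against 3.25 and 2.39 RPKM (log2 fold change 0.02, SE 0.221, edgeR adjusted p = 0.94). IL24, a member of the IL-10 family, had 41 and 39 counts in the control libraries and 5 and 1 after knockdown (log2 fold change -3.85, SE 0.613, adjusted p = 1.12e-04 in the filterByExpr fit). IL24 reached the minimum of that fit in the control group only, which favoured its call. IL24 shares 41.6% of its annotated exon bases with FCMR on the opposite strand, and the libraries do not keep strand. IL15 had 30 and 47 counts in the control libraries and 54 and 51 after knockdown (log2 fold change 0.29, adjusted p = 0.474 in the same fit).

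Receptor chains for these interleukins were mixed. IL7R, which binds IL7 and is also a chain of the TSLP receptor, had 1467 and 1594 counts (13.7 and 14.6 RPKM) in shCtl and 292 and 302 counts (2.22 and 2.54 RPKM) in shM2-3. Its fall was 5.68-fold (log2 fold change -2.50, SE 0.0845, edgeR adjusted p = 1.02e-11), and IL1RL1, the receptor of IL33, fell 6.45-fold, from 175 and 137 counts to 21 and 32 (log2 fold change -2.69, SE 0.296, edgeR adjusted p = 2.14e-06). IL1RL1 passed the RPKM limit in shCtl only, which favoured its call. IL4R, the shared chain of interleukin-4 and interleukin-13 signalling, rose from 3.70 and 3.59 RPKM to 9.09 and 8.70 RPKM (log2 fold change 1.35, SE 0.0847, edgeR adjusted p = 6.77e-09). IL13RA1, its partner chain, was lower, with 36.0 and 36.4 RPKM in shCtl and 20.5 RPKM in each shM2-3 library (log2 fold change -0.75, SE 0.044, edgeR adjusted p = 3.33e-09). So IL4R and IL13RA1 moved in opposite directions, as the chains of the IL-1 receptor did. IL10RB had 7.72 and 8.50 RPKM in shCtl and 8.72 and 8.53 RPKM in shM2-3 (log2 fold change 0.16, SE 0.101, edgeR adjusted p = 0.18), and the decoy IL13RA2 had at most 9 counts in any library.

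Among ligands of the TNF superfamily, TNFSF9, which costimulates T cells through TNFRSF9, was lower, with 10.6 and 12.8 RPKM in shCtl and 6.75 and 5.66 RPKM in shM2-3 (log2 fold change -0.85, SE 0.126, edgeR adjusted p = 4.03e-05). Its receptor TNFRSF9 was higher, from 2.49 and 3.12 RPKM to 8.06 and 8.07 RPKM (log2 fold change 1.59, SE 0.093, edgeR adjusted p = 3.29e-09). TNF had 0 counts in each shCtl library and 21 and 29 counts in shM2-3, at least 7.64-fold higher against 3 counts per library. TNFSF15 had 4 and 5 counts in the control libraries and 111 and 79 after knockdown (log2 fold change 4.20, SE 0.433, adjusted p = 2.30e-06 in the filterByExpr fit), and its receptor TNFRSF25 rose from 2.54 and 2.47 RPKM to 5.30 and 5.54 RPKM (log2 fold change 1.17, SE 0.154, edgeR adjusted p = 1.20e-05). TNF and TNFSF15 were both below 1 RPKM in every library. TNFSF15 reached the filterByExpr minimum in shM2-3 only, which favoured its call in that fit. TNFRSF1A, the main TNF receptor of epithelial cells, was at 48.9 and 50.8 RPKM in shCtl and 75.9 and 77.9 RPKM in shM2-3 (log2 fold change 0.69, edgeR adjusted p = 8.91e-09).

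**Figure D3:**
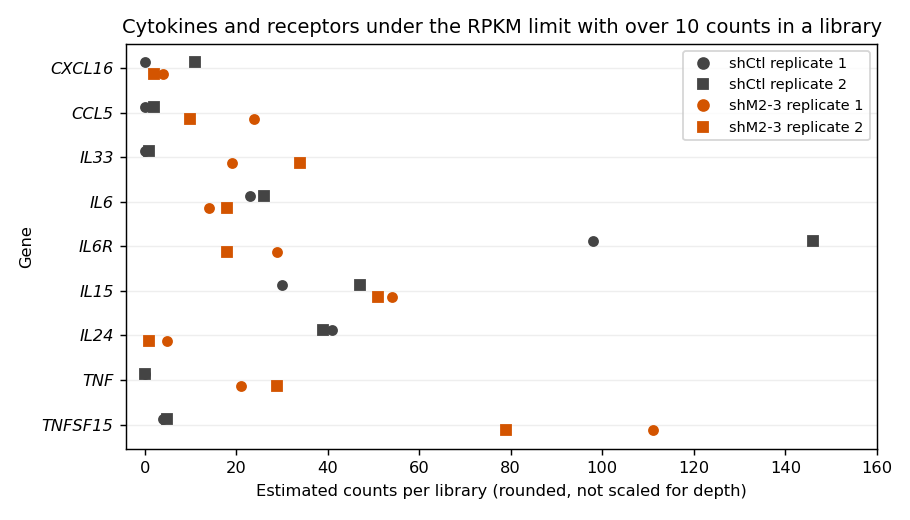
Counts in each library of the cytokine and receptor genes that stayed under 1 RPKM in all 4 libraries and had more than 10 counts in at least 1, on a linear axis not scaled for depth, with shCtl in dark grey and shM2-3 in orange. IL6R and IL24 stand at 39 to 146 counts in shCtl and at 1 to 29 in shM2-3, and TNF, TNFSF15 and IL33 stand at 0 to 5 counts in shCtl and at 19 to 111 in shM2-3.

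In all, 23 cytokine genes stayed under the RPKM limit in every library, and 14 of them had no more than 10 counts in any. The plot of low counts holds the other 9. The filterByExpr rule kept 7 of these, and its fit called TNF, TNFSF15 and IL33 higher and IL6R and IL24 lower. In that fit 16 of 38 cytokine genes were called higher and 6 lower, where 10.9% and 10% of 14436 genes were. IL33, CSF2, CSF3, IL24, TNF and TNFSF15 reached the minimum of that rule in 1 group only, so the rule itself favoured a difference in these 6. Of the other 32 genes, 11 were called higher (34.4%) and 5 lower (15.6%), where 9.46% and 8.99% of the 13843 genes at the minimum in both groups were. The acute-phase proteins SAA1, SAA2 and LCN2 and the Toll-like receptor TLR2 had at most 3 counts in any library, and TLR4 had 0 and 1 counts in the control libraries and 6 and 7 after knockdown.

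ICAM1 and VCAM1 are cytokine-induced adhesion molecules that bind leukocyte integrins, and they parted here. ICAM1 had 2021 and 1996 counts (29.1 and 28.2 RPKM) in shCtl and 8146 and 7572 counts (95.8 and 98.4 RPKM) in shM2-3. VCAM1 had 2838 and 2876 counts (37.8 and 37.7 RPKM) in shCtl and 2675 and 2452 counts (29.1 and 29.5 RPKM) in shM2-3. VCAM1 was thus the higher of the pair in shCtl and the lower in shM2-3. The log2 fold change was 1.83 for ICAM1 (SE 0.045, edgeR adjusted p = 3.81e-13) and -0.30 for VCAM1 (SE 0.0445, edgeR adjusted p = 4.00e-05). ICAM1 shares 23.6% of its exon bases with the antisense gene ICAM4-AS1, which had no row of its own in the tables.

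TLR3, the endosomal sensor of double-stranded RNA, had 13 and 11 counts (0.182 and 0.152 RPKM) in shCtl and 108 and 77 counts (1.24 and 0.976 RPKM) in shM2-3. This was a 6.89-fold increase (log2 fold change 2.79, SE 0.377, edgeR adjusted p = 1.59e-05). SOCS1, which blocks Janus kinases downstream of interferon and cytokine receptors, had 6 and 19 counts (0.211 and 0.656 RPKM) in shCtl and 236 and 198 counts (6.77 and 6.28 RPKM) in shM2-3. The shCtl libraries of SOCS1 differed from each other, but both lay far below shM2-3. The log2 fold change was 3.96 (SE 0.327, edgeR adjusted p = 1.16e-07), with 3.38 without shCtl replicate 1 and 4.99 without shCtl replicate 2. TLR3 and SOCS1 passed the RPKM limit in shM2-3 only, which favoured their calls. The promoters of both genes are shown as the 2 called genes with a match to the interferon-stimulated response element (ISRE), searched on both strands as GAAA, any 2 bases and GAAA again.
SOCS1 (chr16:11256155-11256354, minus strand): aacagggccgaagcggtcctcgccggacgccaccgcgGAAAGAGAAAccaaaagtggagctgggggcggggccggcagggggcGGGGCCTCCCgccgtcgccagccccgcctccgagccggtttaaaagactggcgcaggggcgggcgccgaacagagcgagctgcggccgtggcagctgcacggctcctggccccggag
TLR3 (chr4:186069006-186069205, plus strand): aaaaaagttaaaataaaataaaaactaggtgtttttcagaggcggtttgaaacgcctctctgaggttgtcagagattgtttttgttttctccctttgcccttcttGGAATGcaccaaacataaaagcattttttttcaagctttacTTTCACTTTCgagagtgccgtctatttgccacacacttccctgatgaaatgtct

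In SOCS1 the capitals mark the ISRE letters 113 bases before the start and an NF-kB match 67 bases before it. In TLR3 they mark the TEAD motif GGAATG 45 bases before the start and, on the opposite strand, the ISRE letters starting 4 bases before it. No match in the 10 printed windows overlapped a match of another motif. ISRE letters were found in 6 of 41 cytokine promoters, in 2.77% of promoters of tested genes and in 3.57% of all promoters, and besides SOCS1 and TLR3 the 6 were those of CXCL10 and of VCAM1, TNFSF9 and IL24, which had lower levels in shM2-3. TEAD letters were found in 10 of 41, in 10.9% and in 14.0%. Among the 10 genes called higher with a promoter in the table, 3 held the NF-kB motif and 2 each held AP-1, TEAD and ISRE. Among the 3 called lower with a promoter, 2 held NF-kB and none held the others.

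SOCS2 and SOCS3 went the opposite way to SOCS1. SOCS2, known for limiting growth hormone signalling, had 429 and 402 counts (5.08 and 4.69 RPKM) in shCtl and 202 and 183 counts (1.96 RPKM in each library) in shM2-3. SOCS3, the feedback inhibitor of gp130 receptors, had 1289 and 1370 counts (20.6 ± 0.643 RPKM, SD, n = 2) in shCtl and 985 and 850 counts (12.3 ± 0.413 RPKM, SD, n = 2) in shM2-3. SOCS2 fell 2.38-fold (log2 fold change -1.25, SE 0.121, edgeR adjusted p = 5.76e-07), and SOCS3 had a log2 fold change of -0.68 (SE 0.0647, edgeR adjusted p = 5.13e-07). SOCS4, SOCS5, SOCS6 and SOCS7 were higher by less than the 2-fold limit, with log2 fold changes of 0.33, 0.61, 0.76 and 0.22 (edgeR adjusted p = 4.54e-04, 1.78e-05, 2.03e-06 and 0.0338). SOCS3 was lower while its known inducers LIF and IL11 and the receptor IL6ST were higher in the same libraries.

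Downstream of these receptors, a list of 69 further receptor chains, adaptors, kinases and inhibitors was read, of which 59 had a row and 38 were tested. By the call rule 7 were higher (18.4%) and 2 lower (5.26%), beside the 9.24% and 8.93% of all genes given above. CSF1R and TICAM2 passed the RPKM limit in shM2-3 only and IL1RL1 in shCtl only, so the limit itself favoured a difference in these 3. Of the other 35 genes, 5 were higher (14.3%) and 1 lower (2.86%), beside the 6.86% and 6.85% of genes that passed in both groups. The higher genes were the receptors CSF1R, TNFRSF9 and TNFRSF25 and the adaptors and kinases MYD88, TICAM2, IRAK2 and RIPK1, and the lower genes were IL1RL1 and IL7R. MYD88, the adaptor of IL-1 and most Toll-like receptors, rose from 3.95 and 3.81 RPKM to 7.63 and 7.84 RPKM (log2 fold change 1.06, SE 0.103, edgeR adjusted p = 6.05e-07; 0.98 and 0.84 with limma on log2(RPKM + 0.1) and log2(RPKM + 1), under the 2-fold limit). IRAK2, a kinase of the same complex, rose from 5.74 and 5.63 RPKM to 15.9 and 15.6 RPKM (log2 fold change 1.54, SE 0.0703, edgeR adjusted p = 2.53e-10). RIPK1, a kinase of the TNF receptor complex, rose from 3.45 and 2.85 RPKM to 7.80 and 8.17 RPKM (log2 fold change 1.41, SE 0.0964, edgeR adjusted p = 1.74e-08). These 3 genes had no overlap between groups, and neither did 29 of the 31 tested cytokine genes. Of the 14 tested IL-1 and Toll-like receptor adaptors and kinases, 6 were higher and 4 lower by adjusted p alone, beside the 36.3% and 36.4% of all genes by that rule. Among those not called, IRAK4 had a log2 fold change of -0.80 and TRAF6 of -0.57 (edgeR adjusted p = 8.15e-06 and 1.32e-04), and TAB2 had 0.57, TOLLIP 0.36 and TAB1 0.31 (edgeR adjusted p = 3.04e-07, 2.55e-04 and 0.00814). TICAM2 had 17 and 29 counts in the control libraries and 58 and 86 after knockdown (log2 fold change 1.51, SE 0.399, edgeR adjusted p = 0.00387), had an adjusted p of 0.0648 without shM2-3 replicate 2, and shares 78.7% of its exon bases with the readthrough gene TMED7-TICAM2. None of the 9 tested Janus kinases and further inhibitors of the list was called, beside 9.24% of all genes called higher and 8.93% lower. By adjusted p alone 6 of the 9 were higher and 0 lower, beside 36.3% and 36.4% of all genes. JAK1, the most abundant of them, had a log2 fold change of -0.02 and JAK2 of -0.05 (edgeR adjusted p = 0.674 and 0.622), and TYK2 had 0.55 (edgeR adjusted p = 6.78e-07). JAK3 was under the RPKM limit, with 53 and 35 counts in the control libraries and 9 and 5 after knockdown. The filterByExpr fit called it lower (log2 fold change -2.80, adjusted p = 3.53e-04). JAK3 reached the minimum of that rule in the control group only, so the rule itself favoured a difference, and the call adds nothing to the counts.

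**Figure D4:**
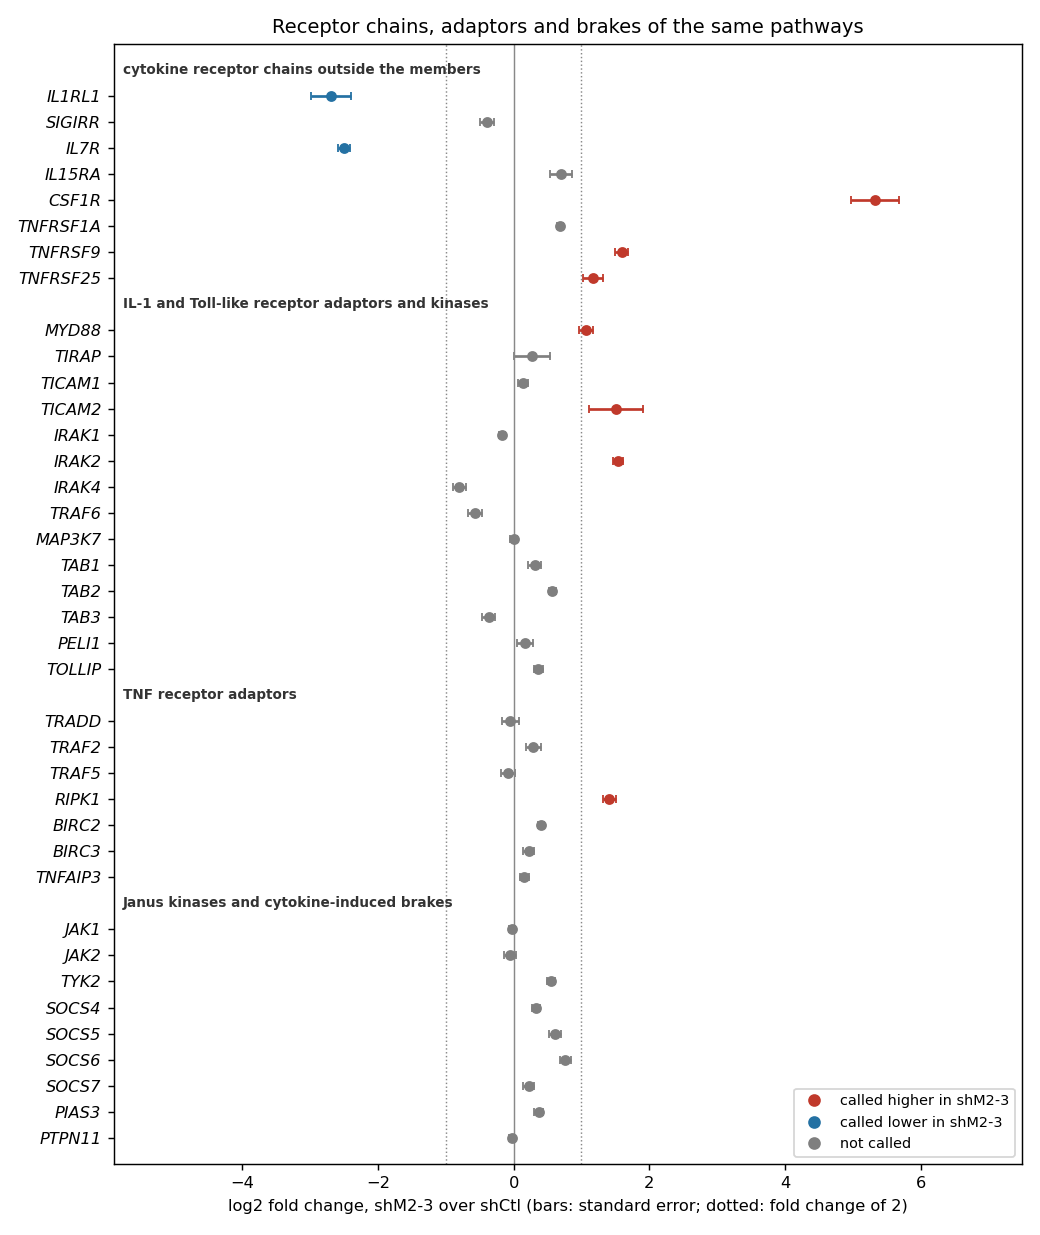
Log2 fold change of each tested receptor, adaptor, kinase and inhibitor outside the 55 genes, shM2-3 over shCtl, with bars for the SE of the edgeR fit, red for genes called higher, blue for lower and grey for the rest; dotted lines mark a fold change of 2. CSF1R lies furthest right at 5.33 and IL1RL1 furthest left at -2.69, while the tested Janus kinases JAK1, JAK2 and TYK2 lie between -0.05 and 0.55.

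**Figure D5:**
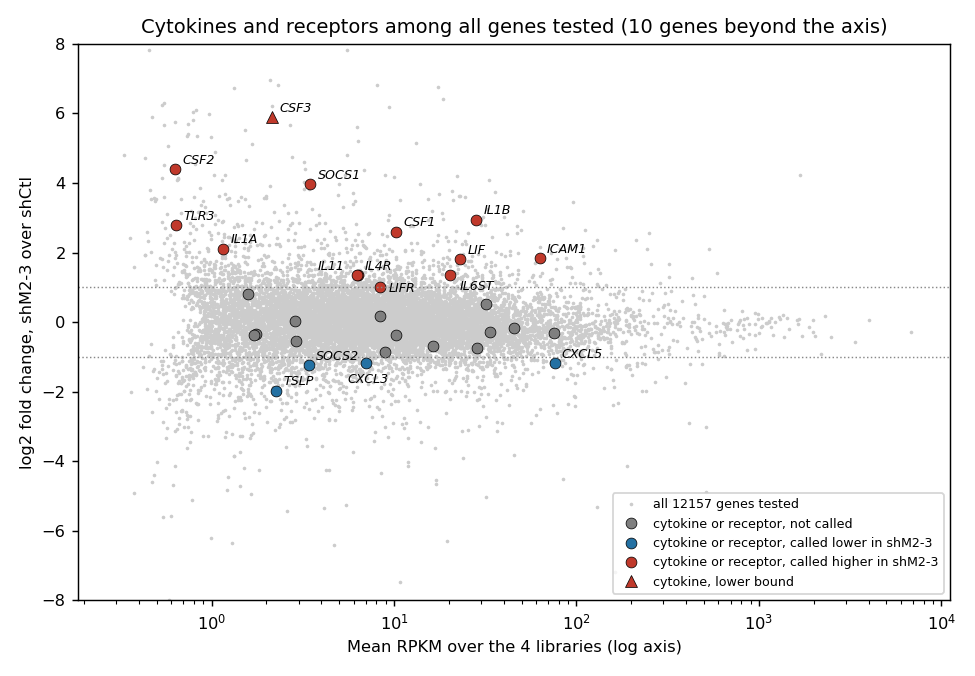
Log2 fold change, shM2-3 over shCtl, against mean RPKM over the 4 libraries (log axis) for all 12157 genes tested (small grey points, 10 beyond the axis), with the 31 cytokine and receptor genes drawn large in red (called higher), blue (called lower) or dark grey, and CSF3 as a triangle at its lower bound. The genes called lower range from -1.97 for TSLP to -1.18 for CXCL3 and those called higher from 1.02 for LIFR to 4.40 for CSF2, with CSF3 at 5.90 or more.

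Across all genes, the plot of change against level places the genes called higher at both low and high levels. CSF2, TLR3 and IL1A had means under 2 RPKM over the 4 libraries, whereas ICAM1, IL1B, LIF and IL6ST were above 20 RPKM. CXCL5 was the most abundant of the genes called lower, and TSLP, the least abundant of them, had the largest fall.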

How the data were processed

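RNA of the 4 ES-2 samples, grouped by their labels, was sequenced as paired ends of 150 bases from libraries without strand information. The authors aligned reads to hg38 (HISAT2 2.0.4 and Partek 7.18 per the submitters' processing notes) and quantified genes. The estimated counts were deposited without normalization, and 42.6% to 48.8% of a library's values are whole numbers. The RPKM values were computed by the authors from these counts.

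Estimated counts were rounded to whole numbers, a step added because raw counts had been assumed, and compared by the quasi-likelihood test of edgeR 4.0.16 under R 4.3.3 (TMM factors, glmQLFit and glmQLFTest, group only, no block) over the 12157 of 19626 genes whose RPKM exceeded 1 in any library, with Benjamini-Hochberg adjustment over all genes tested. Calls needed an adjusted p no larger than 0.05 and at least a 2-fold change. The SE is the log2 fold change divided by the square root of the F value. The biological coefficient of variation was 0.0485. Replicates were distinct libraries (chi-square per degree of freedom 3.51 in shCtl and 4.09 in shM2-3). Lower bounds use 3 counts in each library at 0. Counting intervals are 95% exact binomial intervals scaled by library size and, like the bounds, cover counting error only. Genes under the RPKM limit were read from the filterByExpr fit, because without a filter the prior degrees of freedom were infinite.

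Alternatives were total counts, DESeq2 1.42.0, no filter, filterByExpr, limma 3.58.1 on log2(RPKM + 0.1) and log2(RPKM + 1), other fold limits, a replicate block, each library left out, and, chosen after seeing the data, a limit on mean RPKM. Genes were named by role: every called gene with its values, tested genes with their fold change, low genes by counts. The genes, the further receptors and adaptors, the markers and the motifs were chosen with earlier results of these data known. Positions are from GENCODE release 44 on hg38 and promoters from RefSeq (GRCh38.p14), where 41 genes matched. CXCL16, CX3CL1, CCL2, CCL5, LIF, CSF1, CSF3, IL7, IL15, IL13RA2, SAA1, SAA2, SOCS2 and IL18 did not match. Motifs were searched on both strands, with overlapping matches kept.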

Additional observations from a re-analysis of the deposited data

How the results depend on the processing

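With 2 libraries per group, each SD rests on a pair of values, and genes with few counts also carry counting error. Of the 17 called cytokine genes, 13 kept their call and direction under every alternative in which they were tested. LIFR lost its call at a log2 fold change of 0.99 with total counts and with no filter, at 0.94 and 0.84 with limma on log2(RPKM + 0.1) and log2(RPKM + 1), and at 0.98 without shCtl replicate 2 and 0.93 without shM2-3 replicate 1, since its value lies on the 2-fold limit. With limma on log2(RPKM + 1) IL1A (0.98), TLR3 (0.85) and SOCS2 (-0.99) also fell short of the fold limit, a scale that understates the change of low genes, as did IL1RL1 (-0.95), TNFRSF25 (0.87), MYD88 (0.84) and TICAM2 (0.49) of the further receptors and adaptors. IL32 (0.02) turned to -0.01 with total counts and with no filter, to -0.06 and -0.04 with limma on log2(RPKM + 0.1) and log2(RPKM + 1), to -0.12 without shCtl replicate 1 and to -0.21 without shM2-3 replicate 1, and CCL20 (-0.34) turned to 0.06 without shM2-3 replicate 1. With each library left out in turn IL32 ranged from -0.21 to 0.22 and CCL20 from -0.87 to 0.06. Neither was called in any setting, and the cause was not tested.

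The count of cytokine genes called higher was 10 to 16 over all settings (11 with the limit on mean RPKM, chosen after seeing the data) and of those called lower 3 to 12, being 7 with no filter, 7 at a fold limit of 1.5 and 12 with no fold limit. Over all genes, 596 were called higher with limma on log2(RPKM + 1), 2296 higher and 2302 lower at a fold limit of 1.5, and 4414 and 4430 with no fold limit. Of the further receptors and adaptors, 4 were called higher and 1 lower with limma on log2(RPKM + 1), 11 higher at a fold limit of 1.5, 21 higher and 7 lower with no fold limit, 5 lower with no filter or filterByExpr, and 1 lower with the limit on mean RPKM. Leaving out each library in turn gave 12 to 13 cytokine genes higher and 4 lower, 1099 to 1162 genes higher and 1069 to 1088 lower among all, and 6 to 7 receptors and adaptors higher and 2 lower. Scaling by total counts moved the median of all genes to -0.04. MAML2 ranged from -1.44 to -1.22.

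The labels give both groups replicates 1 and 2, but deviations of same-numbered libraries did not go together (Pearson r = -0.0287 over 12157 genes, which are not independent replicates), so the numbers were not taken as pairs. With a replicate block 13 cytokine genes were called higher and 4 lower, 1123 and 1079 of all genes, 7 and 2 receptors and adaptors, and MAML2 was at -1.40.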
